A study of Arabidopsis thaliana with 24 samples.

Results

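The WRKY transcription factors of Arabidopsis thaliana were followed at 47 loci, all of them among the 23929 genes of the deposited tables. Of these, 10 belong to WRKY group I, 29 to group II (3 in IIa, 5 in IIb, 9 in IIc, 6 in IId and 6 in IIe) and 8 to group III, as the family is usually classified. The members were taken by locus, not by their values; the annotation carries a WRKY symbol for 45 of them, and WRKY1 and WRKY44 (TTG2) stand under other names. The libraries came from whole seedlings of lines labelled vq1vq10, vq10 and vq1, which the series describes as hypermorphic, and of wild type Col-0, each kept for 4 h at 1% oxygen (hypoxia) or at 21% oxygen (normoxia). Seedlings had grown for 14 days in MS medium with 1% sucrose in long days and normoxia, and both treatments took place in dim light on day 15. With 3 independent biological replicates in each of the 8 groups there were 24 libraries of 21150036 to 22645180 reads each. How the mutant alleles were made, and how many seedlings went into a replicate, is not given in the sources used here.

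WRKY proteins bind DNA through a domain with a conserved WRKYGQK stretch next to a zinc finger. Group I carries a pair of such domains, group II a single domain with a C2H2 finger, and group III a single domain with a C2HC finger. They are best known from defence, wounding, senescence and nutrient responses, in which several act below MAP kinase cascades, and VQ proteins bind members of groups I and IIc in particular and alter their activity. Their usual binding site is the W box, and several WRKY genes carry W boxes in their own promoters.

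The W box was searched as TTGACC and TTGACT on both strands (GGTCAA and AGTCAA on the other strand; the motifs do not overlap each other) in the 250 bases before each annotated gene start of the TAIR10.1 assembly (RefSeq). At least 1 match lay in 17 of 47 members (36.2%), against 28.6% of all genes in the files, and at least 2 matches in 9 members (19.1%), against 6.11%. WRKY30 was the member with 3. The 4 promoters below belong to genes whose values carry the account: WRKY33, WRKY40 and WRKY53, which had the largest called decreases under hypoxia in groups I, II and III, and WRKY30. Each reads 5′ to 3′ on the gene's strand, with W box letters in capitals. WRKY33 lies on chr2:16107985-16108234 (plus strand), WRKY40 on chr1:30383311-30383560 (plus), WRKY53 on chr4:12393983-12394232 (minus) and WRKY30 on chr5:8154711-8154960 (minus).
WRKY33: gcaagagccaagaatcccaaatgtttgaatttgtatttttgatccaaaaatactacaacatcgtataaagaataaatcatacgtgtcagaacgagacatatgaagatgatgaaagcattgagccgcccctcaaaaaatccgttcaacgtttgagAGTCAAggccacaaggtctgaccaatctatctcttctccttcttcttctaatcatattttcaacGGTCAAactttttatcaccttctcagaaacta
WRKY40: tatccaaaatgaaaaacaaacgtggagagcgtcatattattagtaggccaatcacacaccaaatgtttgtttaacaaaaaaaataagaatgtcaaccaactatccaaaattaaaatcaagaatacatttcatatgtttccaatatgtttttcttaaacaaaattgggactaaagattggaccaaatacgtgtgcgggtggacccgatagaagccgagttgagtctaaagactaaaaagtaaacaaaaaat
WRKY53: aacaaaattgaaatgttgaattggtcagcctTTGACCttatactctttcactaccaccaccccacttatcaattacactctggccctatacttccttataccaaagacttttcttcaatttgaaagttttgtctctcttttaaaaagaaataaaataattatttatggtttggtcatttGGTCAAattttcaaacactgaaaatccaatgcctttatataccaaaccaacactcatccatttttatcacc
WRKY30: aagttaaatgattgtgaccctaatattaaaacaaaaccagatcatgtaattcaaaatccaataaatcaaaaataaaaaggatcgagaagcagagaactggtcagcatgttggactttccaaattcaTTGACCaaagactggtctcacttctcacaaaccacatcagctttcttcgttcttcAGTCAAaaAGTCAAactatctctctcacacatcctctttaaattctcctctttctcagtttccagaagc
The first bases of the 2 matches of WRKY33 lay at -96 and -32 from the gene start, those of WRKY53 at -219 and -71, and those of WRKY30 at -124, -69 and -61. WRKY40 had no match in this window. A match describes letters only and does not show that a factor binds there.

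The libraries were checked before the family was read. The low oxygen markers ADH1, PDC1, LBD41, PGB1 and SUS4 together reached 1647 to 2523 CPM in hypoxic libraries, against 19.7 to 77.1 CPM in normoxic ones (CPM, reads per 1000000 after TMM scaling). VQ10 was higher than in Col in the libraries labelled vq10 and vq1vq10 in both conditions, whereas VQ1 in those labelled vq1 had 3.35 to 4.80 CPM under hypoxia, against 3.25 to 4.69 CPM in Col, and 3.11 to 4.25 CPM under normoxia, against 3.03 to 5.41 CPM in Col. The vq1 labels were thus not borne out by the level of VQ1 transcript, and vq1 and vq1vq10 name the libraries so labelled. Summed leaf markers had 66919 to 94274 CPM under hypoxia and 59293 to 71190 CPM under normoxia, with 2 of 5 genes called higher, and root markers 1442 to 2075 and 1810 to 2805 CPM, with 5 of 6 called lower and GL2 higher. Senescence markers summed to 25.1 to 46.97 CPM under hypoxia and 32.3 to 53.0 CPM under normoxia. Of 5 tested 3 rose and 2 fell, and SAG12 had 2 reads over all libraries. Among all genes tested 31.7% were called higher and 33.1% lower under hypoxia. The part of these tissue markers in the WRKY values was not tested, and in whole seedlings fewer cells of a type cannot be told apart from less RNA per cell.

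Levels between genes are compared on the deposited TPM scale, which allows for gene length. Averaged over all 24 libraries, WRKY15 (AT2G23320), a calmodulin-binding factor of subgroup IId, was highest at 103.78 TPM. It was followed by its IId relative WRKY11 at 52.45 TPM, a negative regulator of basal defence, and by WRKY33 at 39.55 TPM, a MAP kinase substrate needed for camalexin synthesis and resistance to necrotrophic fungi. WRKY15 stood apart, with 86.0 TPM in its lowest library against 79.7 TPM in the highest WRKY11 library, whereas WRKY11 (33.1 to 79.7 TPM) and WRKY33 overlapped. The group medians were 21.8 TPM in group I, 8.41 TPM in group II and 0.74 TPM in group III. In all, 22 members averaged 10 TPM or more and 42 averaged 1 TPM or more.

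**Figure D1:**
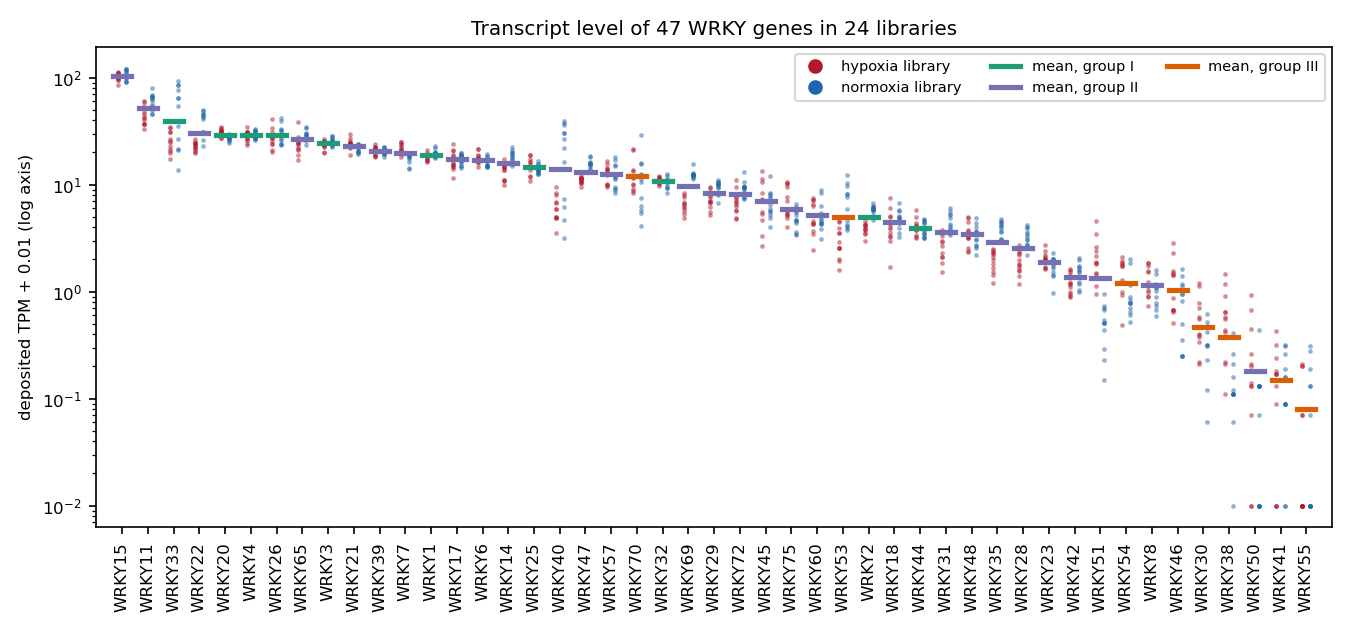
Deposited TPM of the 47 WRKY genes (vertical axis, TPM + 0.01, log axis) in order of their mean; red points are the 12 hypoxic and blue points the 12 normoxic libraries, and bars are means over 24 libraries coloured by WRKY group. WRKY15 averages 103.78 TPM, and WRKY50, WRKY41 and WRKY55 lie at the low end.

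The low-count filter left 44 of 47 members for testing. WRKY41, WRKY50 and WRKY55 did not pass it. WRKY41 had at most 7 reads in a library, WRKY50 at most 14 and WRKY55 at most 5. The highest group sums were 14 reads for WRKY41 and 24 reads for WRKY50, both in hypoxic vq1vq10 libraries, and 9 reads for WRKY55 in normoxic Col. Differences in these genes were not detectable at this depth.

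The response to low oxygen was read first as the mean over the 4 genotypes. Hypoxia changed 32 of the 44 tested members, 19 upward and 13 downward, by edgeR's quasi-likelihood test (adjusted p under 0.05 over 20110 genes). Of all genes tested 64.8% were called, 31.7% higher and 33.1% lower, so the family's share was near the background. The median log2 change was 0.16 over the members and -0.01 over all genes tested. Most changes were small: 4 called members differed at least 2-fold (WRKY51 and WRKY38 upward, WRKY40 and WRKY53 downward), and 20 by less than 1.5-fold. With total counts and no TMM factors, a setting chosen after the data were seen, the median of all genes moved to -0.21 and the split became 8 higher and 17 lower, against 18.3% of all genes higher and 52.5% lower. WRKY4, WRKY15 and WRKY17, called higher with TMM, then had log2 changes of -0.03, -0.05 and -0.04.

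By group and with TMM scaling, 5 members of group I rose and 2 fell of 10, 10 rose and 10 fell of 28 tested in group II, and 4 rose and 1 fell of 6 tested in group III. With total counts the calls were 1 higher and 4 lower in group I, 5 higher and 12 lower in group II, and 2 higher and 1 lower in group III, so the direction of the split in group I depended on the scaling. Within group II and with TMM scaling, 5 of 6 rose and WRKY11 fell in IId, the calmodulin-binding subgroup, and 5 of 6 fell and none rose in IIe. With total counts WRKY7 and WRKY21 alone were called higher in IId, with WRKY11 lower, and all 6 of IIe were called lower. In IIc 4 of 8 tested rose and 1 fell, in IIb 1 of 5 rose and 2 fell, and in IIa WRKY40 fell and WRKY18 and WRKY60 passed in neither direction. The counts in these 3 subgroups are with TMM scaling. Of all genes tested 31.7% were called higher and 33.1% lower with TMM scaling, and 18.3% and 52.5% with total counts. Without the replicate 1 libraries 3 of 6 rose and 1 fell in IId, and 4 of 6 fell in IIe. The shares of all genes were then 28.5% higher and 27.5% lower. No counts were tested against each other.

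**Figure D2:**
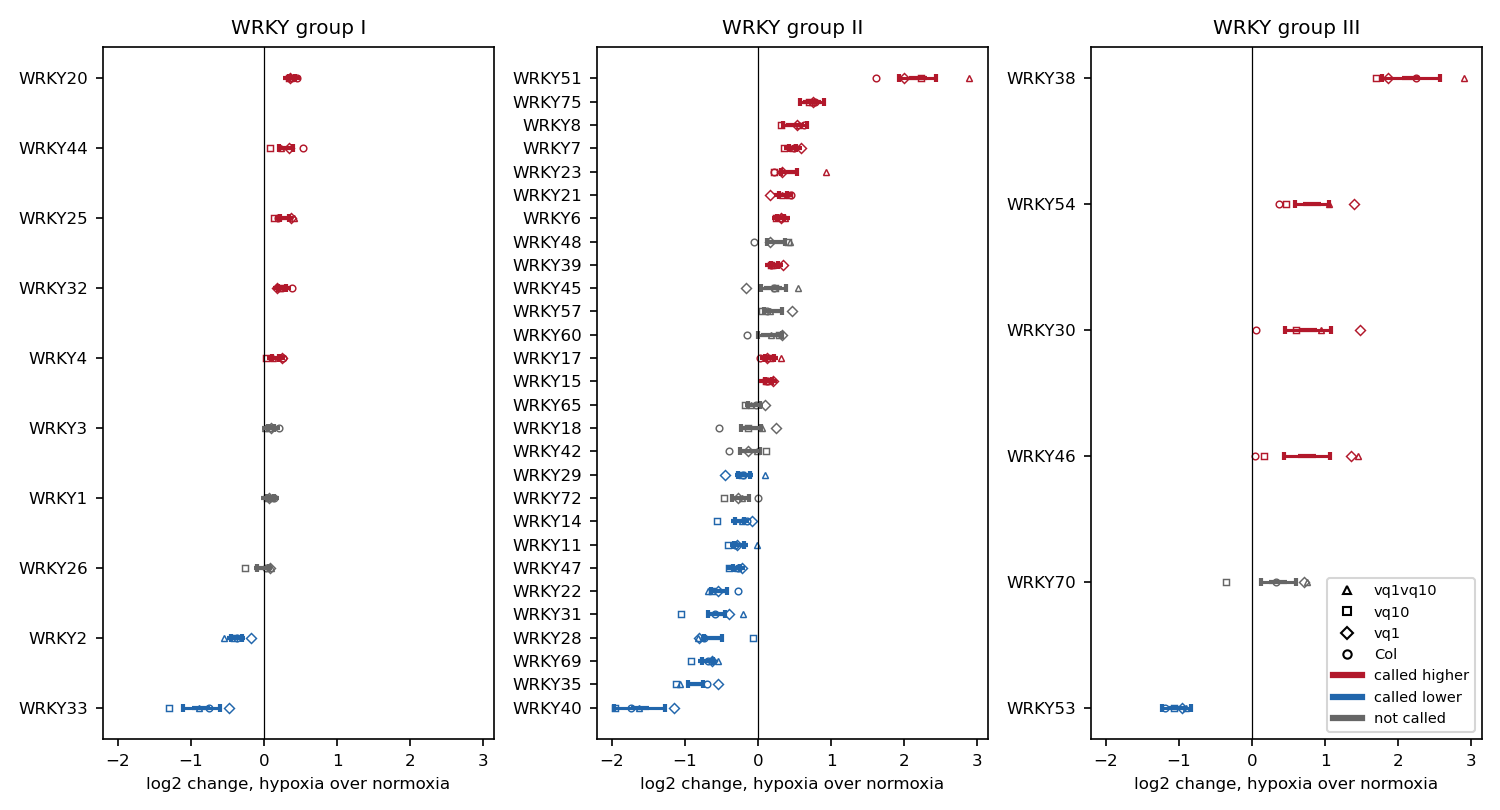
Log2 change of 44 WRKY genes, hypoxia over normoxia (horizontal axis), by WRKY group; dashes with bars are the mean over 4 genotypes ± SE, open symbols the change in each genotype, and colour gives the call. WRKY51 and WRKY38 lie furthest to the right at 2.18 and 2.17, and WRKY40 furthest to the left at -1.62.

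In group I, WRKY20 (AT4G26640) had 47.8, 51.9 and 59.1 CPM as lowest, median and highest of 12 hypoxic libraries, against 35.9, 40.2 and 43.9 CPM in normoxic ones. All hypoxic libraries lay above all normoxic ones (log2 change 0.38 ± 0.04 SE, adjusted p = 2.44e-08), a separation upward that 10.4% of all genes tested showed. WRKY44 (AT2G37260), known as TTG2 from trichome and seed coat development, had 3.49 to 6.56 CPM (median 4.68) under hypoxia and 3.03 to 5.05 CPM (median 3.69) under normoxia, with overlap (0.30 ± 0.10, adjusted p = 0.0121). WRKY25 (AT2G30250), a factor of heat and salt responses, had 15.5 to 22.9 CPM (median 19.3) under hypoxia and 13.8 to 19.2 CPM (median 15.5) under normoxia (0.28 ± 0.06, adjusted p = 0.000491). WRKY32 (AT4G30935) had 12.4 to 15.9 CPM (median 13.9) and 9.35 to 13.7 CPM (median 12.2) in the same order (0.25 ± 0.06, adjusted p = 0.000906). In both, 6 hypoxic libraries exceeded every normoxic one. The calls of WRKY44, WRKY25 and WRKY32 were lost with total counts, at log2 changes of 0.11, 0.085 and 0.055 (adjusted p = 0.328, 0.22 and 0.412). WRKY2 (AT5G56270), which acts in pollen and in the early embryo, was lower, with 7.32 to 11.6 CPM (median 8.89) under hypoxia and 9.26 to 13.4 CPM (median 11.7) under normoxia (-0.38 ± 0.07, adjusted p = 6.36e-05), and 7 hypoxic libraries lay below every normoxic one. WRKY4, a factor of resistance to necrotrophs, rose by 0.16 ± 0.05, while WRKY1, WRKY3 and WRKY26 had 0.09, 0.10 and -0.01 and did not pass.

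In group II the largest rise was that of WRKY51 (AT5G64810), a factor known from the repression of jasmonate signalling. It had 0.59, 1.24 and 2.81 CPM as lowest, median and highest hypoxic libraries, against 0.084, 0.29 and 0.55 CPM in normoxic ones, without overlap (log2 change 2.18 ± 0.26, adjusted p = 1.14e-07). WRKY75 (AT5G13080), a factor of phosphate starvation and senescence, had 2.17 to 6.11 CPM (median 3.80) under hypoxia and 1.68 to 3.28 CPM (median 2.27) under normoxia, and 8 hypoxic libraries lay above every normoxic one (0.74 ± 0.16, adjusted p = 0.000377). WRKY8 (AT5G46350), a partner of VQ9 in salt responses, had 0.71 to 1.75 CPM (median 1.12) and 0.50 to 1.38 CPM (median 0.90) in the same order, with overlap (0.51 ± 0.16, adjusted p = 0.00896). WRKY7 (AT4G24240), of subgroup IId, had 23.7 to 31.3 CPM (median 28.4) under hypoxia and 16.7 to 22.2 CPM (median 21.0) under normoxia, without overlap (0.48 ± 0.05, adjusted p = 1.4e-08).

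Further rises in group II were smaller. WRKY23, known from auxin and flavonol control in roots, had 0.42, WRKY21 0.34, WRKY6, a factor of phosphate homeostasis and senescence, 0.31, and WRKY39 0.22 as log2 changes. WRKY17 and WRKY15 had 0.15 and 0.14, and turned below 0 with total counts. WRKY8, WRKY6 and WRKY39 lost their calls with total counts, at 0.32, 0.12 and 0.032 (adjusted p = 0.0901, 0.0745 and 0.543). WRKY42, WRKY45, WRKY48, WRKY57, WRKY60, WRKY65, WRKY72 and WRKY18 did not pass, with log2 changes between -0.24 and 0.24. A replicate block within each condition called WRKY72 lower (-0.26, adjusted p = 0.0166). WRKY42 and WRKY45 are known regulators of phosphate uptake, and WRKY18 and WRKY60 work together with WRKY40 in defence.

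Among the group II decreases, WRKY35 (AT2G34830) had 1.57, 2.62 and 3.09 CPM as lowest, median and highest hypoxic libraries, against 3.49, 4.65 and 5.62 CPM in normoxic ones. WRKY69 (AT3G58710), like WRKY35 of subgroup IIe, had 4.87, 5.95 and 8.17 CPM under hypoxia, against 8.45, 9.73 and 12.2 CPM under normoxia. In both genes every hypoxic library lay below every normoxic one, which held for 7% of all genes tested (log2 changes -0.86 ± 0.10, adjusted p = 9.94e-08, and -0.69 ± 0.08, adjusted p = 6.86e-08). WRKY28 (AT4G18170), an activator of the salicylic acid synthesis gene ICS1, had 1.31 to 2.97 CPM (median 1.87) under hypoxia and 2.11 to 3.70 CPM (median 2.96) under normoxia, with 8 hypoxic libraries below every normoxic one (-0.61 ± 0.12, adjusted p = 0.000171). WRKY31 fell by 0.56, WRKY47 by 0.30 and WRKY14 by 0.25. WRKY29, known from flagellin signalling, had -0.19, a call that rested on replicate 1. Its log2 change was -0.54 in replicate 1 alone and -0.032 without the replicate 1 libraries (adjusted p = 0.772). It was called in 9 of the 24 fits that left out 1 library.

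In group III, WRKY38 (AT5G22570), a negative regulator of basal defence, had 0.10, 0.50 and 1.24 CPM as lowest, median and highest hypoxic libraries, against 0, 0.085 and 0.34 CPM in normoxic ones. Of the hypoxic libraries 9 exceeded every normoxic one (log2 change 2.17 ± 0.40, adjusted p = 5.39e-05), at few reads per library. WRKY54 (AT2G40750), which restrains senescence together with WRKY70, had 0.51 to 2.17 CPM (median 1.55) under hypoxia and 0.45 to 1.86 CPM (median 0.72) under normoxia (0.82 ± 0.24, adjusted p = 0.00445). WRKY30 (AT5G24110), an early senescence factor, had 0.18 to 1.11 CPM (median 0.43) and 0.042 to 0.48 CPM (median 0.30) in the same order (0.77 ± 0.32, adjusted p = 0.038). Both overlapped between conditions, and WRKY30 was called in 12 of the 24 fits that left out 1 library and not with total counts (0.58, adjusted p = 0.106). The called decrease was that of WRKY53, described with the replicates below.

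Within single genotypes fewer members passed. In vq1vq10, 9 members rose and 6 fell, against backgrounds of 17.7% and 15.8% (33.5% in either direction). In vq10, 4 rose and 10 fell (19.5% and 18.2%, 37.7% in either), in vq1 7 rose and 4 fell (19.1% and 16.5%, 35.6%), and in Col 9 rose and 7 fell (21.9% and 19.9%, 41.8%). With 1 library left out the count was 7 to 18 in Col and 6 to 13 in vq1, and it was 8 in a fit of the Col groups alone. Members called in every genotype were WRKY7, WRKY20 and WRKY51 upward and WRKY35 and WRKY69 downward. These were 5 of 44 members (11.4%), against 20.9% of all genes. In all, 26 members (59.1%) were called in at least 1 genotype, against 58.2% of genes, and none in opposite directions in different genotypes, against 0.0597%. Of the 32 members called on average 31 (96.9%) had the same sign in all 4 genotypes, against 92.7% of all genes called on average, so both shares were near the background.

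Several defence-related members differed between normoxic replicates in the same way in every genotype. In normoxic libraries replicate 1 had the lowest of the 3 values in every genotype for 6 of 44 members (13.6%): WRKY11, WRKY22, WRKY33, WRKY40, WRKY46 and WRKY70. The same held for 523 of 20110 genes (2.6%). Under hypoxia replicate 1 was lowest in every genotype for 1 member, WRKY29, and for 2.78% of genes. The labels give no batch for a replicate number, and these members and WRKY53 are described together because of their values. The 6 members were picked for a low normoxic replicate 1. A higher log2 change in replicate 1 alone, and a lower one without it, was favoured by that choice and is given as a description.

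WRKY33 (AT2G38470) had 47.5, 41.8 and 35.5 CPM in hypoxic and 27.9, 84.5 and 118 CPM in normoxic vq1vq10 libraries (replicates 1, 2 and 3). In vq10 it had 39.8, 32.1 and 26.8 CPM under hypoxia and 34.6, 102 and 107 CPM under normoxia. In libraries labelled vq1 it had 46.9, 51.1 and 33.7 CPM under hypoxia and 28.3, 74.7 and 81.1 CPM under normoxia. In Col the values were 32.9, 32.8 and 37.1 CPM under hypoxia and 18.0, 43.9 and 112 CPM under normoxia. Replicate 1 was thus lower under normoxia than under hypoxia in every genotype, and replicates 2 and 3 were higher. Over all libraries WRKY33 fell (log2 change -0.86 ± 0.26, adjusted p = 0.0056). In replicate 1 alone, a fit chosen after the data were seen, its log2 change was 0.62. That fit has 8 libraries, 1 for each genotype and condition. Its error is thus the spread between genotypes within 1 replicate number, and its changes are given without p-values. Without the replicate 1 libraries WRKY33 fell by 1.30 (adjusted p = 5.41e-06).

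WRKY40 (AT1G80840), a repressor of basal defence and a quick responder to wounding, went the same way. Its values were 8.43, 6.91 and 4.57 CPM in hypoxic and 5.13, 25.5 and 31.1 CPM in normoxic vq1vq10 libraries, and 6.73, 4.57 and 4.95 CPM in hypoxic and 6.16, 25.5 and 31.4 CPM in normoxic vq10 libraries. In those labelled vq1 they were 6.73, 7.93 and 5.54 CPM under hypoxia and 4.01, 23.2 and 17.6 CPM under normoxia, and in Col 4.98, 3.71 and 5.28 CPM under hypoxia and 2.65, 13.2 and 30.7 CPM under normoxia. Hypoxic values lay between 3.71 and 8.43 CPM in every library, and the spread was in the normoxic ones. The log2 change was -1.62 ± 0.35 over all libraries (adjusted p = 0.000311), 0.59 in replicate 1 alone and -2.18 without the replicate 1 libraries (adjusted p = 4.68e-08).

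WRKY22 (AT4G01250), a factor of flagellin signalling that is also known from submergence, had 18.8, 21.6 and 27.0 CPM as lowest, median and highest hypoxic libraries, against 19.3, 35.6 and 41.2 CPM in normoxic ones. Normoxic replicate 1 had 21.8, 26.2, 27.2 and 19.3 CPM in vq1vq10, vq10, vq1 and Col. The log2 change was -0.53 ± 0.11 over all libraries (adjusted p = 0.000174), -0.02 in replicate 1 alone and -0.75 without replicate 1. WRKY11 likewise had -0.26 ± 0.07 (adjusted p = 0.00275), 0.02 and -0.39. WRKY53 (AT4G23810), a regulator of leaf senescence, had 1.83, 3.01 and 4.64 CPM as lowest, median and highest hypoxic libraries, against 3.75, 6.67 and 11.3 CPM in normoxic ones, and 7 hypoxic libraries lay below every normoxic one. It had log2 changes of -1.03 ± 0.20 (adjusted p = 8.36e-05), -0.26 in replicate 1 alone and -1.30 without replicate 1.

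In WRKY46 and WRKY70 of group III a low normoxic replicate 1 went with a rise. WRKY70 (AT3G56400), a factor of salicylic acid signalling, had 3.80, 5.95, 5.65 and 5.13 CPM in normoxic replicate 1 of vq1vq10, vq10, vq1 and Col, against 6.74 to 27.7 CPM in the other normoxic libraries and 8.84 to 22.1 CPM in hypoxic ones. Its log2 change was 0.36 ± 0.24 over all libraries (adjusted p = 0.184), 1.25 in replicate 1 alone and 0.09 without replicate 1. A replicate block within each condition, which does not pair hypoxia with normoxia, called WRKY70 higher (0.47 ± 0.17, adjusted p = 0.0163). WRKY46 (AT2G46400), known from stress responses and lateral roots, had 0.46, 1.09 and 2.52 CPM as lowest, median and highest hypoxic libraries and 0.21, 0.75 and 1.32 CPM in normoxic ones. It rose by 0.75 ± 0.32 (adjusted p = 0.0415), by 2.18 in replicate 1 alone, and had 0.38 without replicate 1 (adjusted p = 0.309); it was called in 13 of the 24 fits that left out 1 library and not with total counts (0.56, adjusted p = 0.12). WRKY30, too, did not pass without the replicate 1 libraries (0.58, adjusted p = 0.232). In group II the rises of WRKY8, WRKY23, WRKY15 and WRKY17 also lost their calls in that fit. Their log2 changes were 0.374, 0.285, 0.105 and 0.084 (adjusted p = 0.115, 0.0693, 0.187 and 0.323).

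**Figure D3:**
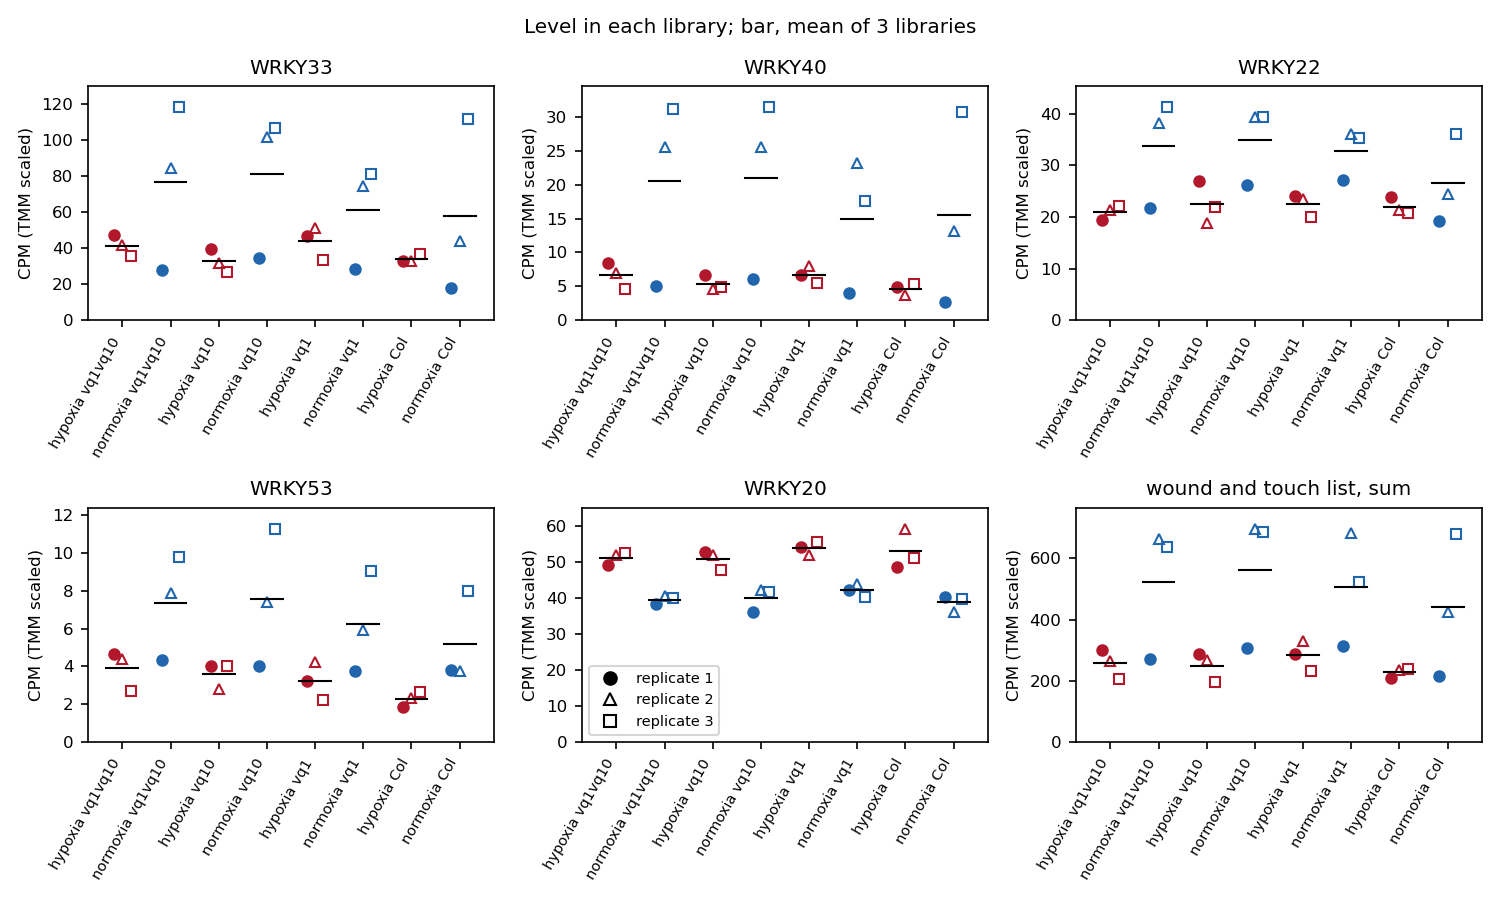
CPM (vertical axes, TMM scaled) of WRKY33, WRKY40, WRKY22, WRKY53 and WRKY20, and the sum of 12 rapid wound and touch genes, in each library; red is hypoxia and blue normoxia, filled circles are replicate 1, and bars are means of 3 libraries. Normoxic replicate 1 of WRKY33 has 18.0 to 34.6 CPM and the other normoxic libraries 43.9 to 118 CPM, whereas WRKY20 is higher in every hypoxic library.

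Rapid wound and touch genes moved with these members. Replicate 1 was the lowest normoxic library in every genotype for 11 of 12 genes on that list, against 2.6% of all genes tested. The list includes the touch gene TCH4 and the stress factors ZAT10, ERF5 and ERF104. The summed level of the 12 genes was 195 to 329 CPM in hypoxic libraries. It was 214 to 313 CPM in normoxic replicate 1 and up to 697 CPM in the other normoxic libraries. Over all libraries 10 of the 12 fell under hypoxia and ZAT12 rose, against 33.1% and 31.7% of all genes tested. The part of this in the WRKY values was not tested.

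The members with separated conditions had to keep their direction in any part of the libraries, and their values are given as a description. In replicate 1 alone and without replicate 1, WRKY20 had log2 changes of 0.36 and 0.39, WRKY7 0.52 and 0.46, and WRKY51 2.997 and 1.77. In the same order WRKY35 had -0.83 and -0.86, and WRKY69 -0.67 and -0.70. With replicate 1 alone, 18 members rose and 7 fell of 42 tested, against 24.9% and 25.7% of all genes. Without it 14 rose and 12 fell of 45 tested, against 28.5% and 27.5% of all genes.

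**Figure D4:**
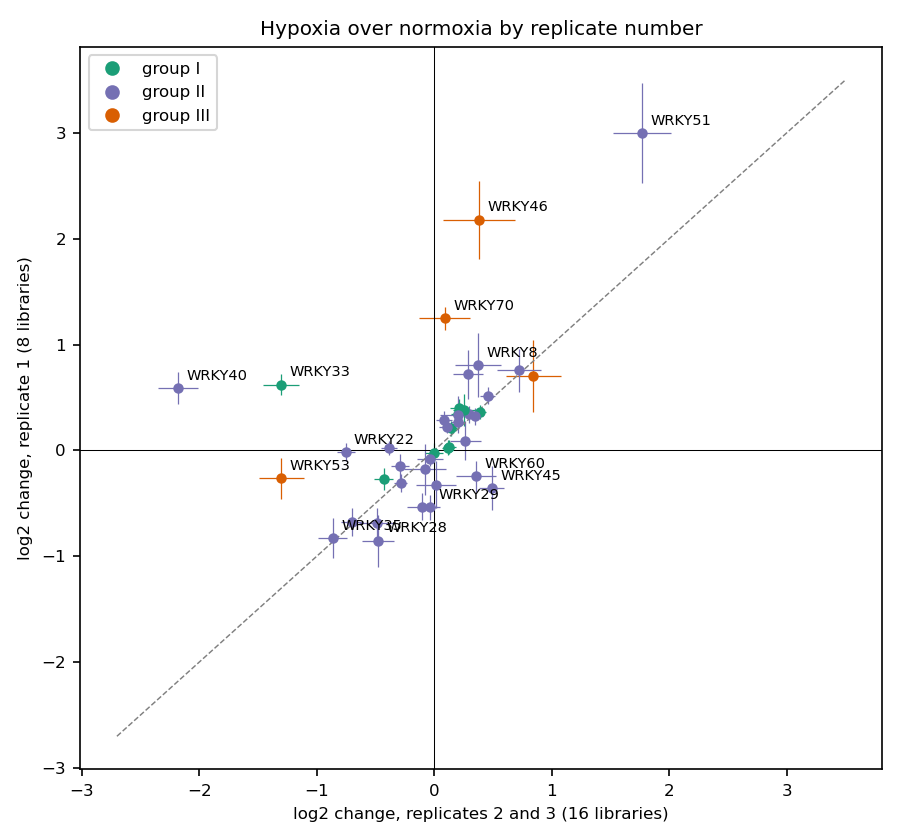
Log2 change ± SE, hypoxia over normoxia, of 42 WRKY genes in the 16 libraries of replicates 2 and 3 (horizontal axis) and in the 8 libraries of replicate 1 (vertical axis); colours are WRKY groups and the dashed line marks equal values. WRKY33 and WRKY40 lie at 0.62 and 0.59 on the vertical axis and at -1.30 and -2.18 on the horizontal one. With 1 library for each genotype and condition, the SE in replicate 1 comes from the spread between genotypes.

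Each mutant was then compared with Col within a condition, and the 3 comparisons of a condition share the Col libraries. None of the 44 tested members was called in any of the 6 comparisons by edgeR, and DESeq2 called none either. The backgrounds were 0.0845% of genes in vq1vq10 under hypoxia and 0.0646% under normoxia, 0.0646% and 0.0597% in vq10, and 0.0845% and 0.0796% in vq1. At an unadjusted p under 0.05 there were 7 members in vq1vq10 under hypoxia (9.43% of all genes) and 2 under normoxia (4.32%), 1 under hypoxia (8.5%) and 0 under normoxia (3.55%) in vq10, and 2 under hypoxia (5.47%) and 1 under normoxia (7.22%) in vq1. The 95% intervals lay within 2-fold either way for 31 to 35 of the 44 members in each comparison, with a median half-width of 0.43 to 0.44 on the log2 scale.

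The double mutant under hypoxia had the most members standing apart. In 9 of 44 members (20.5%) all vq1vq10 libraries lay above all Col libraries, against 5.43% of all genes tested, and in none below, against 6.8%. In the other comparisons such members were fewer: 2 above (4.98% of genes) and 0 below (4.92%) in vq1vq10 under normoxia, 1 above (4.75%) and 1 below (4.88%) in vq10 under hypoxia, and 1 above (4.54%) and 0 below (4.55%) in vq10 under normoxia. In vq1 there were 4 above (3.76%) and 0 below (3.72%) under hypoxia, and 2 above (6.74%) and 1 below (6.67%) under normoxia. The 9 members of the double mutant were WRKY8, WRKY11, WRKY17, WRKY25, WRKY26, WRKY30, WRKY46, WRKY51 and WRKY53. Some of them also stood apart elsewhere: all libraries lay above Col for WRKY25 and WRKY51 in vq1 and WRKY53 in vq10 under hypoxia. Under normoxia the same held for WRKY8 in vq1vq10 and WRKY25 in vq10, while WRKY17 lay below Col in vq1. WRKY17, a relative of WRKY11 in basal defence, had the smallest p, with 25.1, 21.0 and 22.0 CPM in vq1vq10, against 17.6, 14.4 and 19.8 CPM in Col (log2 difference 0.40 ± 0.12, adjusted p = 0.349). WRKY11 had 51.6, 45.0 and 52.5 CPM in vq1vq10, against 36.4, 33.5 and 42.5 CPM in Col (0.41 ± 0.14, adjusted p = 0.404). The largest difference was that of WRKY46 (1.33, 95% interval 0.06 to 2.59), which had 1.29, 2.52 and 1.34 CPM in vq1vq10, against 0.89, 0.71 and 0.46 CPM in Col. None of the 9 passed the adjusted threshold. The summed level of the salicylic acid defence list, which includes PR1, was also above hypoxic Col in these libraries. It was 139, 136 and 71.2 CPM in hypoxic vq1vq10 libraries, against 30.9, 29.2 and 29.1 CPM in hypoxic Col ones. PR1 made up much of the first of these sums, with 103, 12.6 and 3.18 CPM in vq1vq10, against 0.052, 3.76 and 0.046 CPM in Col. The list summed to 38.4, 90.2 and 25.4 CPM in hypoxic vq1 libraries and 26.6, 27.6 and 68.0 CPM in hypoxic vq10 ones. Normoxic vq10 libraries had 31.2, 69.3 and 42.1 CPM. Under normoxia the sums were 29.0, 37.8 and 34.4 CPM in vq1vq10, against 37.5, 34.9 and 41.9 CPM in Col. The part of this in the WRKY values was not tested.

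**Figure D5:**
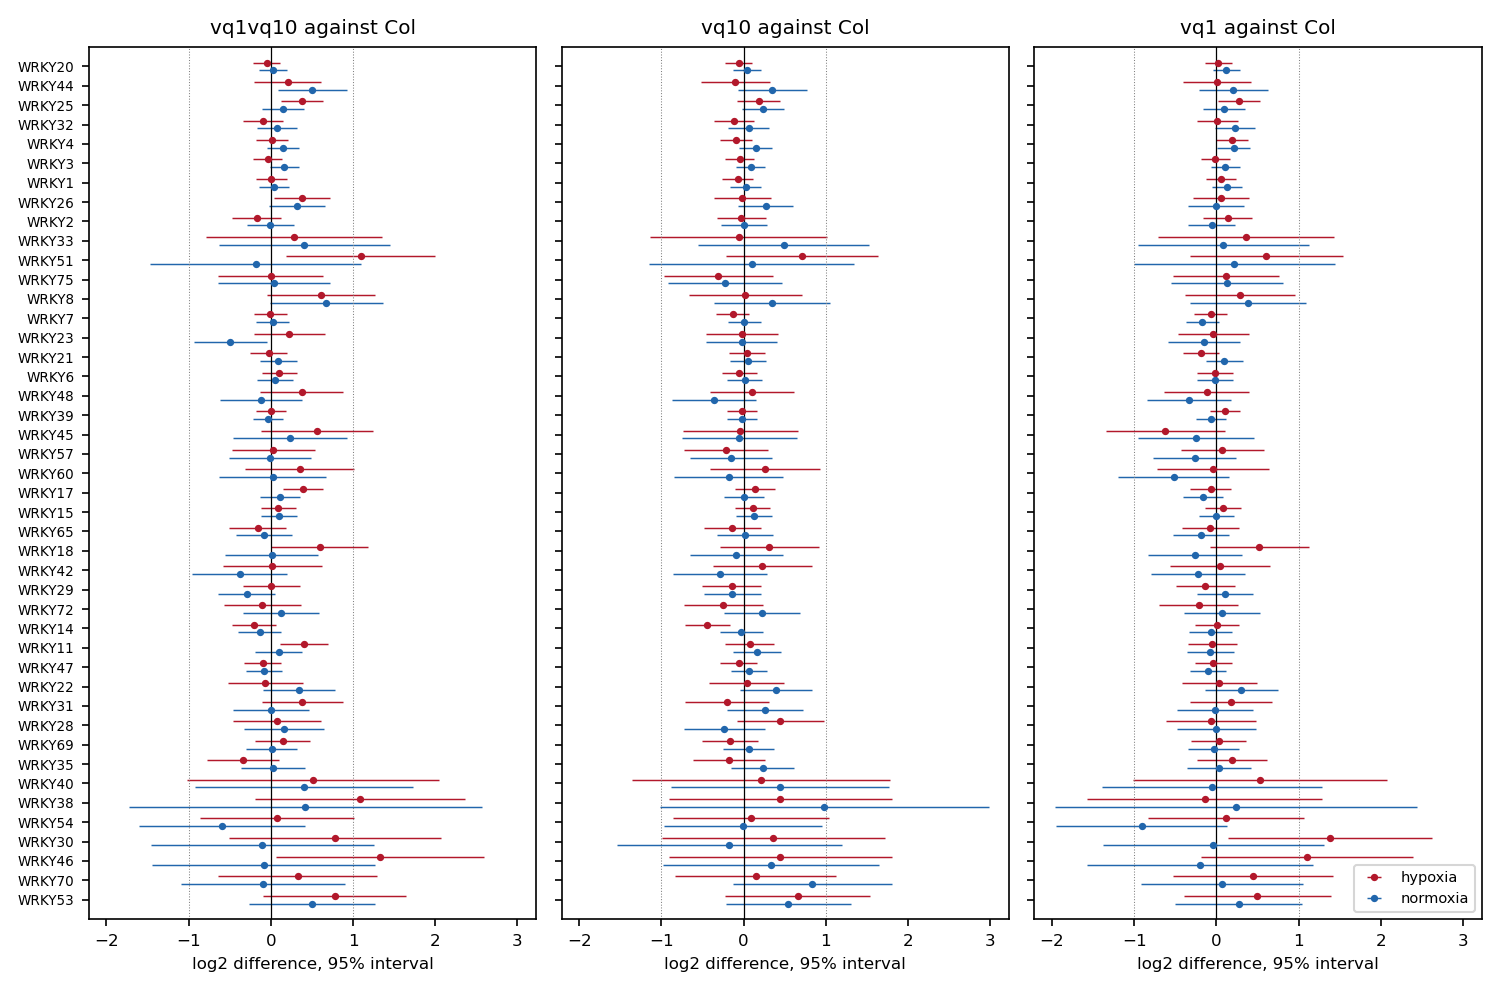
Log2 difference of 44 WRKY genes from Col with 95% intervals (horizontal axis) in libraries labelled vq1vq10, vq10 and vq1, under hypoxia (red) and normoxia (blue); dotted lines mark 2-fold. No member is called. Of 44 differences, 30 under hypoxia and 29 under normoxia lie above 0 in vq1vq10, 20 and 30 in vq10, and 28 and 20 in vq1.

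In the other comparisons with Col the member with the smallest p was as follows. WRKY44 under normoxia had 3.92, 5.05 and 4.72 CPM in vq1vq10, against 3.03, 3.45 and 3.15 CPM in Col (0.51, 95% interval 0.09 to 0.92, adjusted p = 1.0). WRKY14 under hypoxia had 17.2, 14.7 and 17.2 CPM in vq10, against 24.3, 17.9 and 24.2 CPM in Col (-0.44, interval -0.71 to -0.17, adjusted p = 0.402). In both genes the 3 mutant libraries lay on one side of the Col libraries. WRKY25 under normoxia had 17.7, 19.2 and 14.9 CPM in vq10, against 14.4, 14.7 and 14.7 CPM in Col (0.24, interval -0.02 to 0.49). WRKY30 under hypoxia had 1.08, 1.11 and 0.30 CPM in libraries labelled vq1, against 0.37, 0.41 and 0.18 CPM in Col, with overlap (1.38, interval 0.14 to 2.62, adjusted p = 0.882). WRKY4 under normoxia had 50.6, 44.2 and 40.9 CPM in libraries labelled vq1, against 38.5, 38.3 and 40.5 CPM in Col (0.21, interval 0.01 to 0.41, adjusted p = 0.669).

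The response to hypoxia itself was compared between each mutant and Col as a difference of differences. No member was called, nor was any of the 20110 genes (0%), and members with an unadjusted p under 0.05 numbered 1 in vq1vq10 (8.14% of all genes), 1 in vq10 (8.22%) and 0 in vq1 (3.39%). The smallest p were those of WRKY23 in vq1vq10 (difference in log2 change 0.72, 95% interval 0.10 to 1.34, adjusted p = 0.563), WRKY14 in vq10 (-0.41, interval -0.79 to -0.04, adjusted p = 0.595) and WRKY18 in vq1 (0.79, interval -0.04 to 1.61). A joint test over the 4 genotypes called no member for the response (0% of genes), under normoxia (0.134%) or under hypoxia (0.189%). Its smallest p belonged to WRKY14, WRKY23 and WRKY31 for the response, to WRKY44, WRKY26 and WRKY23 under normoxia, and to WRKY17, WRKY14 and WRKY11 under hypoxia (unadjusted p of 0.003, 0.00821 and 0.0142). The intervals of the differences in response reached 2-fold for 15 to 20 members, so differences of that size were not excluded in those genes.

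Genes known to act with WRKY factors were read from lists chosen for this family. Of all genes tested 31.7% were called higher and 33.1% lower under hypoxia, and no list was tested against these shares. Of 11 tested VQ genes whose proteins bind WRKY factors, 2 rose and 4 fell under hypoxia. Among them were VQ29, a factor of light-dependent growth, with a log2 change of 4.14 ± 0.49, and IKU1, a seed size regulator, with -0.41 ± 0.05. The change of VQ29 rests on few reads, 99 over all libraries and at most 24 in a library. Among 9 genes of the MAP kinase cascade, 3 rose and 5 fell. MKK9 and MPK3, a kinase that phosphorylates WRKY33, had -1.20 ± 0.16 and -0.77 ± 0.06, whereas MPK4 had 0.39 ± 0.04. For 3 of these 9 and 4 of the 11 VQ genes replicate 1 was the lowest normoxic library in every genotype. The same held for 2.6% of all genes tested. Of 9 tested genes with reported WRKY binding, 6 rose and 2 fell. PAD3, the last enzyme of camalexin synthesis and a target of WRKY33, had -0.63 ± 0.15, and CYP71A12 -1.66 ± 0.35, whereas NPR1, the salicylic acid receptor, had 0.53 ± 0.05, and PBS3 1.86 ± 0.31. In the salicylic acid list 4 of 7 rose, among them SARD1 with 1.31 ± 0.29, and 2 fell, among them EDS1 with -0.68 ± 0.07. No gene of these lists other than VQ10 was called between a mutant and Col.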

How the data were processed

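RNA was measured by RNA-seq (MGIEasy libraries, RIN above 8), per the labels. HISAT2 2.0.4, DESeq2 and the build TAIR10 are listed per the submitters' processing notes. The program that counted reads, its use of strand and any filter were not given in the sources used here. Read count, TPM and FPKM columns are named per the file headers. The deposited read counts are expected counts (525 to 581 genes per library not whole) and were rounded. The deposited TPM served for levels between genes, and the deposited FPKM were not used. All 24 libraries entered a quasi-likelihood fit in edgeR 4.0.16 (R 4.3.3), with 1 mean for each group, after TMM scaling (factors 0.876 to 1.018 under hypoxia, 1.03 to 1.108 under normoxia) and filterByExpr, and p-values were adjusted over 20110 genes (Benjamini-Hochberg). It was tested on simulated data with independent libraries. These held no shared effect of replicate number, so the error rate under such an effect was not tested. Standard errors were derived from each log2 change and its F statistic.

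The members and gene lists were chosen with earlier results of these data known. Values per library, or their range over libraries, are given for the 4 largest called changes each way in each WRKY group. The same holds for the smallest p of each comparison of a mutant with Col within a condition. Means are given for the 3 highest TPM, and reads for members below the filter. WRKY22, WRKY70 and single list genes were named after their values were seen. WRKY groups are background knowledge. Alternatives were RLE factors, no filter, DESeq2 1.42.0, the compared groups alone, a replicate block and each library left out; fits by replicate 1 and with total counts were added after the data were seen.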

Additional observations from a re-analysis of the deposited data

How the results depend on the processing

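The oxygen count over the mean of 4 genotypes was 32 with RLE factors and with DESeq2, 31 without the low-count filter and 28 to 34 when 1 library was left out. By the check of residuals, same-numbered libraries of different genotypes resembled each other weakly. Their median r was 0.12 under hypoxia (11 of 18 pairs above 0.1) and 0.10 under normoxia (9 of 18). Libraries with different numbers had -0.06 in both conditions (1 and 8 of 36 pairs above 0.1). Of the 24 libraries 20 correlated best with their own number. Replicate number was not in the main fit. The replicate block was fitted within each condition. It took differences between replicate numbers out of the error and did not pair hypoxic with normoxic libraries. A replicate block gave 34 members on average (65.5% of all genes), with WRKY70 and WRKY72 added, 18 in vq1vq10 (34.9%), 16 in vq10 (39.4%), 16 in vq1 (37.1%; 11 members without the block), 18 in Col (43.6%), and 0 in each comparison of a mutant with Col (0.0646% to 0.159%).

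In Col the count was 16 in all libraries, 8 in a fit of the compared groups alone and 7 to 18 with 1 library left out; it was 7 without hypoxic Col replicate 1, and 8 and 9 without normoxic Col replicates 2 and 3. In vq1 it was 11, with 6 to 13; it was 6 and 7 without hypoxic vq1 replicates 1 and 2, and 6 without normoxic vq1 replicate 3. The ranges were 10 to 18 in vq1vq10 and 10 to 15 in vq10. Without hypoxic Col replicate 3, 1 member was called in vq1vq10 against Col under hypoxia (0 to 1); every other comparison of genotypes stayed at 0 to 0. The cause was not tested.

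In replicate 1 alone, log2 changes turned to 0.62 in WRKY33, 0.588 in WRKY40 and 0.02 in WRKY11. With total counts they turned to -0.105 in WRKY1, -0.03 in WRKY4, -0.05 in WRKY15 and -0.037 in WRKY17, and in the uncalled WRKY3 and WRKY60 to -0.095 and -0.026. With 1 library left out, calls were lost for WRKY29 in 15 of 24 fits, WRKY30 in 12, WRKY46 in 11, WRKY17 in 9 and WRKY15 in 4. Low counts limit WRKY30, WRKY38, WRKY46 and WRKY51, and 3 libraries a group limit the comparisons of genotypes.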
